A study of Caenorhabditis elegans with 4 samples.

Results

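The regions described here are the 276 entries on the X chromosome in a combined list of 1679 regions bound by the nuclear hormone receptor NHR-237 in Caenorhabditis elegans embryos. The rule that defines them uses position alone, taking every line of the combined list whose chromosome is X, and names no rank or width. The rule was set with earlier results of these data known, so the choice of X may not be independent of rank or width. The same chromosome held 1549 of 8326 entries in the list of ChIP replicate 1 and 2375 of 12698 in that of ChIP replicate 2. Chromatin immunoprecipitation and sequencing (ChIP-seq) was done with anti-GFP antibodies on 2 samples, and 2 input samples of unselected chromatin carry matching replicate numbers. ChIP and input samples alike came from embryos of strain OP228 raised at 20 °C. Its genotype combines the mutation unc119(ed3) with the transgene wgIs228, which holds nhr-237 fused to the tags TY1, EGFP and FLAG together with unc119. The tagged protein therefore came from a transgene, which had been introduced by bombardment of an unc-119(ed3) strain, and the animals were a mixture of males and hermaphrodites. Whether the replicates came from separate cultures is not said in the labels, and differences between them may therefore be technical.

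Nuclear hormone receptors are transcription factors with a zinc-finger domain that binds DNA and a second domain that in many members binds a small lipophilic ligand. The family is greatly expanded in nematodes, and most of its worm members have no known ligand. In C. elegans the X chromosome differs between the sexes in copy number, hermaphrodites having a pair and males a single copy. In hermaphrodite embryos a condensin-containing dosage compensation complex loads at recruitment elements on X, spreads along the chromosome and lowers its transcription. X is also silenced for much of germline development and carries few genes of general germline function. Its ends are less sharply set apart from its middle, in recombination and repeat content, than those of the autosomes. The gene nhr-237 itself lies on chromosome V in the RefSeq annotation of assembly WBcel235. The regions are on WormBase WS220, and neither a genome nor an annotation of that build was used here, so regions are given by position and without sequence or gene.

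Each entry gives its coordinates together with the authors' own score and peak number. The peak number runs from 1 upward without repeats in each list. It falls as the score rises, with a rank correlation of -0.84 across combined entries and a nearly exact order in the replicate lists, and it was read as a rank whose best value is 1. The score could not order the best regions, since 189 of the 276 X entries, or 68.5% (95% interval 62.6 to 73.9), shared the highest combined score of 3.35. This was close to the 66.9% of all combined entries that did. The highest score was also shared by 306 entries of replicate 1 and 863 of replicate 2. The order at the head of each list therefore rests on the peak number alone, and what sets that number is not stated. Intervals are exact Clopper-Pearson binomial intervals and cover counting error only. For a share of 0 the limit given is that of 3 counts, which is somewhat lower than the upper end of the exact interval. Entries of a list are not replicates, and 2 ChIP samples without a contrasting group permit no test over samples, so X and the autosomes are compared by their counts and intervals and no p-value is given. The lists contain no read counts, and the depth of the samples is unknown.

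By number alone X was not set apart. It held 16.4% (14.7 to 18.3) of the combined entries and 17.7% of the chromosome length spanned by the lists, or 15.6 entries per Mb against 17.0 on the autosomes. Single autosomes ran from 10.8 per Mb on V to 23.4 per Mb on I, a range that encloses the value for X. The replicate lists gave X a slightly larger place, with 18.6% (17.8 to 19.5) of nuclear entries in replicate 1 and 18.7% (18.1 to 19.4) in replicate 2. X entries covered 0.709% of the X extent in the combined list, against 0.766% on the autosomes. In the replicate lists the order was turned round, at 3.85% of X against 3.65% of the autosomes in replicate 1 and 5.97% against 5.57% in replicate 2.

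The X share of the replicate lists varied with rank past entry 800. In replicate 1, X held 16.0% (13.7 to 18.6) of entries above 800 and up to 1679, 18.4% (16.9 to 20.1) of those up to 4000 and 19.3% (18.1 to 20.5) of those after 4000. The same classes in replicate 2 had 15.9% (13.6 to 18.5), 17.9% (16.4 to 19.5) and 19.4% (18.5 to 20.2). In both samples the X share was lowest in the first of these classes and highest in the last, with intervals that overlap in replicate 1 and meet at 18.5% in replicate 2. By decile of the whole list the rise was not steady. The X share in deciles 1, 9 and 10 was 17.7%, 20.1% and 18.3% in replicate 1, and 16.5%, 21.4% and 17.2% in replicate 2. Split by fate instead of rank, X made up 17.0% (15.3 to 18.8) of the replicate 1 entries that overlapped a combined region. It made up 19.5% (18.1 to 20.9) of those found in replicate 2 but not in the combined list, and 18.8% (17.5 to 20.1) of those found in neither. The matching shares in replicate 2 were 17.1% (15.4 to 18.8), 19.4% (18.0 to 20.8) and 18.9% (18.0 to 19.8). The intervals of neighbouring classes overlap in these splits.

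Among the first 25 entries of each list X had most of them. Of the 25 combined regions with the smallest peak numbers, 16 were on X, which is 5.80% (3.35 to 9.24) of the X entries against 0.641% (0.294 to 1.21) of the autosomal ones, where 1.49% of all combined entries belong to the first 25. Among the first 10 regions X held 7 in the combined list, 7 in replicate 1 and 5 in replicate 2. The cut at 25 was also set with earlier results known, and X held 36.0% (22.9 to 50.8) of the first 50 combined regions. The later classes had no such excess. After the peak numbers 18 to 24, which were all on X, the next X regions had numbers 26, 34, 52, 61 and 70. The share of X was 13.3% (6.58 to 23.2) among combined regions 26 to 100, 14.7% (7.56 to 24.7) in that class of replicate 1 and 13.3% (6.58 to 23.2) in that of replicate 2. From there it stayed between 14.8% and 18.5% in every class of the combined list. Among combined regions 26 to 100, chromosomes III and I had larger shares than X, at 28.0% (18.2 to 39.6) and 25.3% (16.0 to 36.7). Of the first 25 combined regions III held 4, and of the first 100 X held 26 and III held 25.

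**Figure D1:**
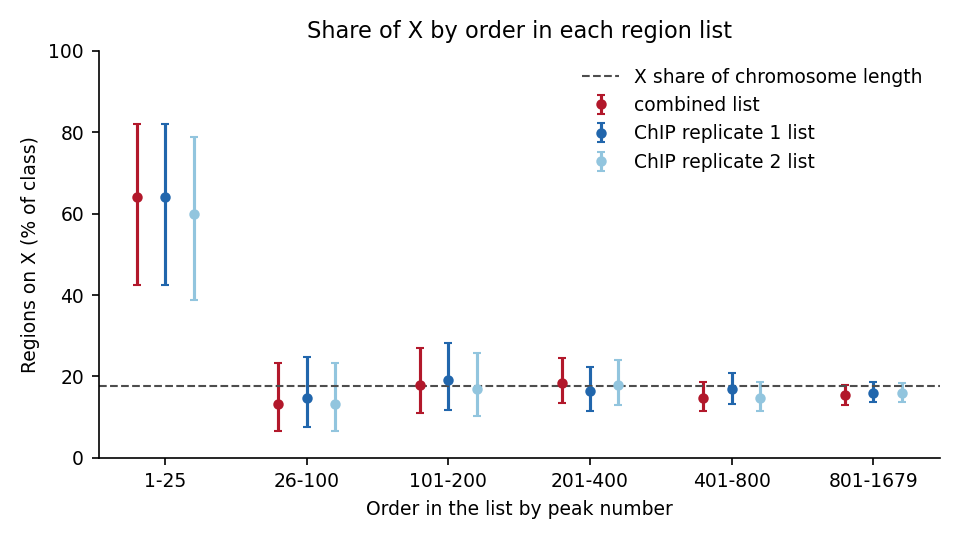
Percentage of entries that lie on X (y axis) by order in the list (x axis, 6 classes) for the combined list and both ChIP replicate lists, with exact 95% binomial intervals. The first 25 entries have 64.0%, 64.0% and 60.0% on X, and the later classes sit near the dashed line at 17.7%, the X share of chromosome length.

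The 16 leading X regions were small-numbered in both samples, though their order changed between them. The region at 6296268 to 6296756, 489 bp wide, was number 1 in the combined list, number 1 in replicate 1 and number 3 in replicate 2. At 13700576 to 13701010 a region of 435 bp had combined number 4, with 4 in replicate 1 and 5 in replicate 2. The 500 bp region at 11093859 to 11094358 was number 5, with 7 in replicate 1 and 4 in replicate 2. These 3 regions kept nearly the same place in each sample. Larger shifts came next: 806513 to 806860 (348 bp) was combined number 6, with 3 in replicate 1 and 7 in replicate 2. The region at 2996844 to 2997396 (553 bp) had combined number 7, and was number 2 in replicate 1 but number 14 in replicate 2. At 14525491 to 14526069 the 579 bp region with combined number 9 had 12 in replicate 1 and 6 in replicate 2. Replicate 1 gave the smaller number to 2 of these 3 regions.

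Another 4 regions formed the middle of this set. The 605 bp region at 8036057 to 8036661, combined number 10, had peak number 15 in replicate 1 and 11 in replicate 2. Combined number 11 lay at 11937313 to 11937657 (345 bp), with 9 in replicate 1 and 16 in replicate 2. The region at 9465593 to 9466005 (413 bp) was combined number 13, with 18 in replicate 1 and 12 in replicate 2. All of these stayed within the first 20 of both samples, as did 4209011 to 4209462 (452 bp), combined number 18, which had 19 in replicate 1 and 15 in replicate 2.

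The last 6 of the 16 had consecutive combined numbers. Number 19, at 5429355 to 5429699 (345 bp), had 13 in replicate 1 and 20 in replicate 2. Number 20, at 1626945 to 1627317 (373 bp), had 14 in replicate 1 and 24 in replicate 2. Number 21, at 12362878 to 12363314 (437 bp), had 21 in replicate 1 and 19 in replicate 2. The widest gap in rank of the 6 belonged to the next one, at 16681897 to 16682182 (286 bp), which was combined number 22 with 10 in replicate 1 and 26 in replicate 2. It was also the narrowest of the 16. Combined number 23 lay at 11605601 to 11606228 (628 bp, the widest), with 20 in replicate 1 and 23 in replicate 2. Combined number 24 lay at 16056265 to 16056757 (493 bp), with 22 in replicate 1 and 27 in replicate 2. Across the 16, the largest peak number was 22 in replicate 1 and 27 in replicate 2, with medians of 12.5 and 14.5, and 10 of the 16 had the smaller number in replicate 1. Midpoints of the paired replicate entries lay a median of 8.75 bp apart, and the 54.5 and 61 bp of combined numbers 9 and 23 were the only distances above 50 bp. The 9 autosomal regions among the first 25 had a median distance of 6.50 bp and a largest one of 12.00 bp.

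Width was compared next. Most combined entries have a fixed width of 490 bp, and the sources used here do not say how the others got theirs. Another width was found in 37 of the 276 X entries, or 13.4% (9.62 to 18.0), against 168 of 1403 autosomal entries, or 12.0% (10.3 to 13.8), and 12.2% of all. The count was therefore like that of the other chromosomes, but the widths were not all of one kind. Of the 37, 28 were narrower than 490 bp and 9 were wider, up to 628 bp. Entries wider than 490 bp made up 3.26% (1.50 to 6.10) of X. None of the 1403 autosomal entries was wider than 490 bp, which allows a share of up to 0.214%, and 0.536% of all entries were. In replicate 1, where the fixed width is 464 bp, 4 X entries and 0 of 6769 autosomal entries were wider (up to 0.0443% allowed; 0.0481% of all). In replicate 2, with a fixed width of 470 bp, 7 X entries and 0 of 10307 autosomal entries were (up to 0.0291% allowed; 0.0552% of all). Each of these 9, 4 and 7 entries overlapped one of the 16 leading X regions, and with identical entries counted once they were 6, 3 and 4 positions. One of the 4 positions in replicate 2, at 6296271 to 6296742, measured 472 bp and so barely exceeded the fixed width.

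Within the first 25, all 16 X regions and all 9 autosomal regions had a width other than 490 bp, so the class as such does not separate them. The 16 X regions measured 286 to 628 bp with a median of 444.5 bp, and the 9 autosomal regions 278 to 368 bp with a median of 331 bp. The widest autosomal one was narrower than 12 of the 16 X regions. The counterparts in replicate 1 measured 234 to 594 bp on X (median 376.5) and at most 297 bp on the autosomes (median 286), and 12 of the 16 X counterparts exceeded that. In replicate 2 they measured 238 to 565 bp on X (median 417.5) and at most 330 bp on the autosomes (median 307), which 11 of 16 exceeded. For every one of the 16 the combined entry was wider than both replicate entries, and the replicate 2 entry was wider than that of replicate 1 in 13.

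Further down the list most X entries of another width were narrow. Among combined numbers above 100 and up to 200, 8 of 18 X entries had another width than 490 bp, with a median of 138.5 bp, against 48 of 82 autosomal entries with a median of 190 bp. The share was 8.11% (1.70 to 21.9) on X and 17.2% (11.7 to 23.9) on the autosomes for numbers above 200 and up to 400. It was 1.69% (0.0429 to 9.09) and 5.28% (3.16 to 8.21) for numbers above 400 and up to 800. The intervals of X and the autosomes overlap in each class. The narrowest X entries were 14560238 to 14560359 (122 bp, number 109), 7181729 to 7181851 (123 bp, number 183) and 2364811 to 2364937 (127 bp, number 423). Their counterparts lay close together in the samples all the same, with midpoints 0, 3 and 2 bp apart.

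**Figure D2:**
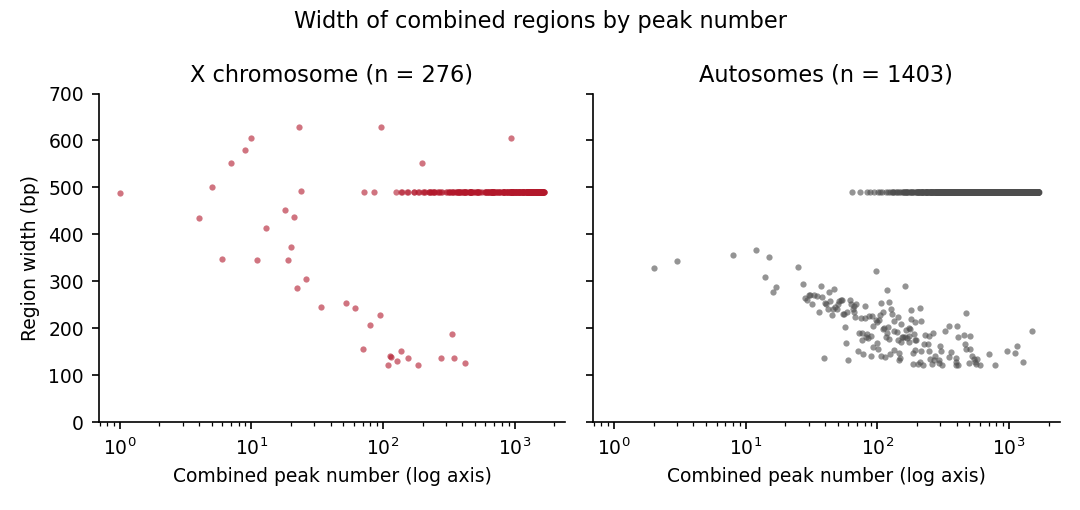
Width in bp (y axis) of each combined entry against its peak number (log x axis), on X at left and on the autosomes at right. The line of points at 490 bp is the fixed width. X alone has points above it, up to 628 bp, and those with numbers below 25 are wider than most autosomal entries of like number.

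Several wide X regions appeared more than once in a list. The combined list had 3 positions on X entered under 2 peak numbers with identical coordinates: 2996844 to 2997396 under 7 and 198, 8036057 to 8036661 under 10 and 932, and 11605601 to 11606228 under 23 and 96. These 6 entries were 2.17% (0.802 to 4.67) of the X entries, while 0 of 1403 autosomal entries shared coordinates (up to 0.214% allowed; 0.357% of all). The replicate 1 list had 2 such entries on X and 0 of 6769 on the autosomes (0.0240% of all), and the replicate 2 list had 8 on X and 0 of 10307 on the autosomes (0.0631% of all). Counted once, the X entries of the combined list occupied 273 positions. The first 25 held only the better-numbered entry of each of the 3, so the count of 16 X regions was the same with identical entries counted once.

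Overlaps between entries of the same list, identical ones included, were then counted. Of the 276 X entries, 26, or 9.42% (6.25 to 13.5), overlapped another entry of the list, against 59 autosomal entries, or 4.21% (3.22 to 5.39), and 5.06% of all. Single autosomes ran from 1.77% (0.484 to 4.47) on V to 6.25% (3.96 to 9.31) on I, and the intervals of I, II and III overlap that of X. Without the 6 entries of identical coordinates, 20 X entries, or 7.25% (4.48 to 11), overlapped another in part, against the same 59 on the autosomes and 4.71% of all, and the intervals of X and the pooled autosomes then overlap. In the replicate lists, identical entries included, the shares were 18.8% (16.9 to 20.8) on X and 14.6% (13.8 to 15.5) on the autosomes in replicate 1 (15.4% of all), and 20.7% (19.1 to 22.4) and 18.7% (18.0 to 19.5) in replicate 2 (19.1% of all). The 26 combined entries formed 13 pairs, 3 of them the identical ones, which spanned 535 to 784 bp. The better entry of the pair was within the first 100 in 6 of 13 pairs. Its median number was 114, and that of the weaker entry was 1042. Merging overlapping entries left 263 separate X regions.

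The number of X entries with combined numbers 26 to 100 was 10, among them the repeat of number 23 under 96. The best was 1344880 to 1345184 (305 bp, number 26), with 27 in replicate 1 and 29 in replicate 2. It was followed by 16929527 to 16929771 (245 bp, number 34), with 39 in replicate 1 and 31 in replicate 2. Number 52, at 15607526 to 15607780 (255 bp), had 40 in replicate 1 and 77 in replicate 2. The next 3 regions also had larger numbers in replicate 2 than in replicate 1. Number 61, at 15275320 to 15275563 (244 bp), had 50 in replicate 1 and 93 in replicate 2. Number 70, at 16612346 to 16612501 (156 bp), had 73 and 89, and number 72, at 8404168 to 8404657 with the fixed width, had 51 and 108 in that order of samples. Number 79, at 5841175 to 5841381 (207 bp), stood farthest apart, with 233 in replicate 1 and 47 in replicate 2. Number 86 lay at 353127 to 353616 with 113 in replicate 1 and 92 in replicate 2. Number 95 lay at 10568805 to 10569032 (228 bp) with 93 in replicate 1 and 158 in replicate 2. The rank correlation of the samples was 0.61 over these 10 X entries and 0.63 over the 16 leading ones. The 10 include number 96, which was given the counterparts of leading number 23. Both sets are also small, so these values do not show whether the order was kept equally.

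The next comparison asked whether the replicate samples found X regions as often as regions elsewhere. A counterpart was any entry of a replicate list overlapping by at least 1 bp, and among several the best-numbered one was used. Of the 276 X entries, 274, or 99.3% (97.4 to 99.9), had a counterpart in both samples, against 1390 of 1403 autosomal entries, or 99.1% (98.4 to 99.5), and 99.1% of all. Taken singly, 275 X entries (99.6%) had one in replicate 1, where 99.4% of all did, and 275 (99.6%) in replicate 2, where 99.7% of all did. The combined list names the irreproducible discovery rate (IDR) procedure as its source and is not independent of the replicate lists, so a high share is in part built in. One X region lacked a counterpart in replicate 2. It lay at 15736334 to 15736823 with combined number 1143, and its replicate 1 entry had number 895. The only X region without one in replicate 1 lay at 1103609 to 1104098 with combined number 1440, and its replicate 2 entry had number 672.

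Across the 274 X pairs the peak numbers of the samples had a rank correlation (Spearman's rho) of 0.70, and across 1390 autosomal pairs one of 0.58. Pearson's r was 0.29 for X and 0.24 for the autosomes. The points share the same pair of libraries and were selected by a procedure that uses both, and no p is attached to them. Without the first 25 combined regions rho was 0.64 on X and 0.57 on the autosomes. This X set still held the repeats of numbers 7, 10 and 23 under 198, 932 and 96, with the counterparts of those leading regions. The repeats under 198 and 932 also remain in the ranges that follow. In each of the 13 overlapping X pairs the weaker entry was given the counterparts of the better one. Of these weaker entries 10 had numbers past 800. The 274 X pairs thus used 261 distinct starts in each replicate list. The 1390 autosomal pairs used 1359 in replicate 1 and 1360 in replicate 2. How far shared counterparts set the difference between X and the autosomes was not tested. Over combined numbers above 100 and up to 800 rho was 0.28 on X (114 pairs) and 0.38 on the autosomes (585 pairs). X did not have the higher value there. Past number 800 it was -0.08 on X and -0.24 on the autosomes. Paired numbers differed by more than a factor of 2 in 98 X pairs (35.8%) and in 463 autosomal pairs (33.3%). Midpoints of paired entries lay a median of 24.5 bp apart on X (quartiles 7.62 and 58.0 bp) and 24.0 bp apart on the autosomes (8.62 and 52.8 bp). The largest distance was 245.0 bp on X and 419.0 bp on the autosomes.

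**Figure D3:**
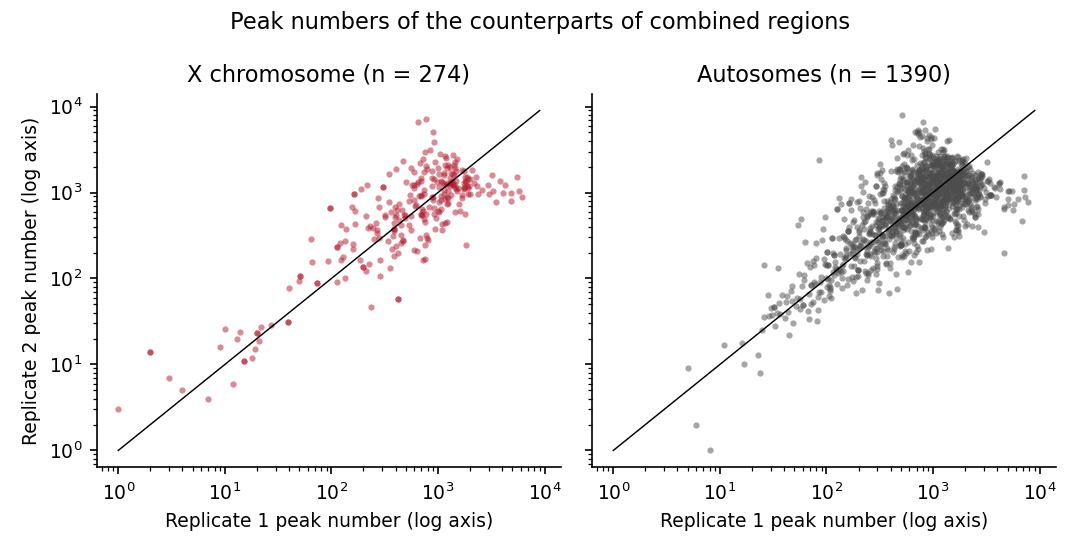
Peak number of the replicate 2 counterpart (log y axis) against that of the replicate 1 counterpart (log x axis) for combined regions on X (left, 274 pairs) and on the autosomes (right, 1390 pairs), with the line of equal numbers. Points lie near the line at small numbers and spread widely at larger ones in both panels.

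Some X regions ranked very differently in the samples. The largest imbalances towards replicate 2 were at 14708037 to 14708526 (combined number 539), with 1843 in replicate 1 and 246 in replicate 2, and at the overlapping entries 949505 to 949644 and 949558 to 950047 (numbers 114 and 1050). The last pair shared its counterparts, number 423 in replicate 1 and number 57 in replicate 2. In the other direction, 14561396 to 14561885 (number 1623) had 650 in replicate 1 and 6638 in replicate 2. The region at 15707256 to 15707745 (number 1585) had 773 in replicate 1 and 7203 in replicate 2. The third in that direction was the repeated entry at 2996844 to 2997396 under number 198, which was given the counterparts of number 7. At the very end of the X regions, 10148160 to 10148649 (number 1663) had 6087 in replicate 1 and 889 in replicate 2. The region at 14173771 to 14174260 (number 1674) had 4101 and 980 in that order of samples, while 12181459 to 12181948 (number 1666) had 1914 and 1441. Their scores of 1.52 to 1.54 lie at the lower end of the combined list.

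The replicate lists were then compared directly. Of the X entries of replicate 1, 911 of 1549, or 58.8% (56.3 to 61.3), overlapped a replicate 2 entry, against 59.2% (58.0 to 60.4) on the autosomes and 59.1% of all. From replicate 2, 959 of 2375 X entries, or 40.4% (38.4 to 42.4), overlapped a replicate 1 entry, against 40.9% (39.9 to 41.8) on the autosomes and 40.8% of all. On this measure X differed from the autosomes by less than the counting error, and it lay inside the range of the single autosomes, 55.0% on V to 62.5% on III in replicate 1. By rank, all 147 X entries in the best decile of replicate 1 were found in replicate 2 (97.5 to 100), as were 99.7% (98.9 to 100.0) of the autosomal ones. In the second decile the shares were 88.9% (82.3 to 93.6) on X and 95.6% (93.7 to 97.0) on the autosomes. That was the only decile of either list in which the intervals did not overlap. In the last decile 33.6% (26.1 to 41.7) of X entries and 32.0% (28.5 to 35.6) of autosomal entries recurred. In replicate 2 the best decile recurred at 98.1% (95.2 to 99.5) on X and 96.6% (95.3 to 97.6) on the autosomes, and the last at 22.9% (17.5 to 29.1) and 19.0% (16.6 to 21.5).

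**Figure D4:**
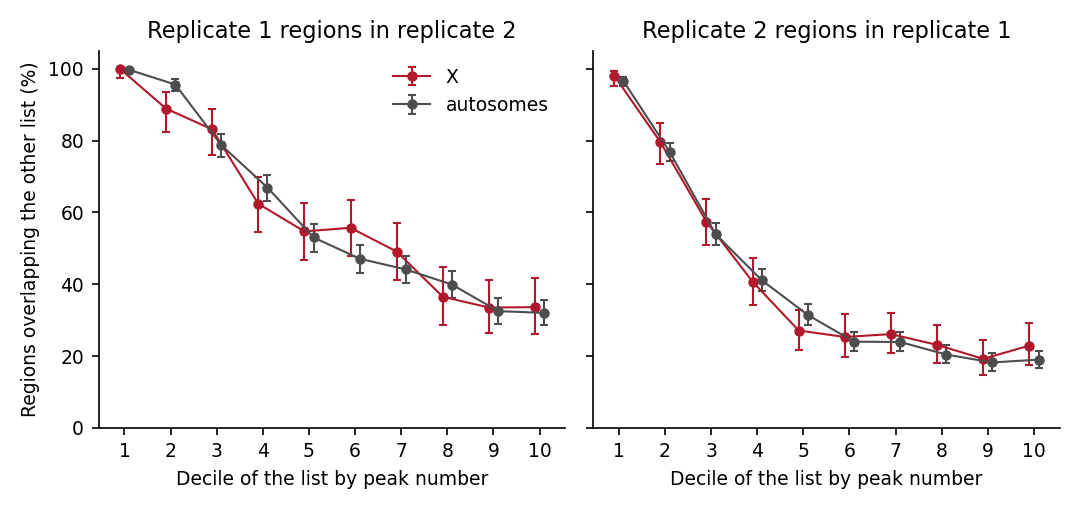
Percentage of entries of one replicate list that overlap the other (y axis) by decile of peak number (x axis, 1 is best), for X and the autosomes, with exact 95% binomial intervals. Both groups fall from near 100% in decile 1 to 33.6% and 32.0% in replicate 1 and to 22.9% and 19.0% in replicate 2.

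The share of replicate entries that reached the combined list was slightly smaller on X than on the autosomes together, though not smaller than on V. In replicate 1 the share that overlapped a combined region was 20.5% (18.5 to 22.6) on X and 22.9% (21.9 to 23.9) on the autosomes, with 22.4% of all. In replicate 2 it was 14.2% (12.8 to 15.7) on X and 15.9% (15.2 to 16.6) on the autosomes, with 15.6% of all. The intervals overlap in both samples. A further 595 X entries of replicate 1, or 38.4% (36.0 to 40.9), were found in replicate 2 but not in the combined list, against 36.4% (35.2 to 37.5) on the autosomes and 36.8% of all. The best X entries without a combined region were at 15630699 to 15631162, 14602494 to 14602957 and 10684395 to 10684858 in replicate 1 (peak numbers 959, 961 and 1009). In replicate 2 they were at 14015676 to 14016145, 382684 to 383153 and 15365047 to 15365516 (numbers 946, 1011 and 1083). Thus no X entry of replicate 1 with a number under 959, and none of replicate 2 under 946, was without a combined region.

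Entries found in a single sample began at similar numbers. In replicate 1 the best X entry with no replicate 2 overlap was at 15736351 to 15736814 with number 895, which has the combined region noted above. It was followed by 15630699 to 15631162 (number 959) and 4635611 to 4636074 (number 1024). In replicate 2 the best were at 1103619 to 1104088 (number 672, also in the combined list), 15606724 to 15607193 (number 1195) and 11384470 to 11384939 (number 1219). None of the 6 belongs to the leading set.

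The middle of X held a smaller share of its regions than the middle of the autosomes did of theirs. The middle of 3 equal parts of X, each 5.89 Mb long, held 80 of 276 combined entries, or 29.0% (23.7 to 34.7), against 40.9% (38.3 to 43.5) on the autosomes and 39.0% of all. The first part of X held 32.6% (27.1 to 38.5) and the last 38.4% (32.6 to 44.4). Among single autosomes the middle share ran from 37.7% (31.7 to 44.0) on IV to 49.1% (42.4 to 55.8) on V. The intervals for I, II, III and IV overlap that for X, and only that for V does not. The replicate lists had middle shares of 29.5% (27.2 to 31.8) on X against 37.7% (36.6 to 38.9) on the autosomes in replicate 1, and 31.1% (29.2 to 33.0) against 37.0% (36.0 to 37.9) in replicate 2. In replicate 2, chromosome III at 31.8% (29.8 to 33.9) was close to X. The 16 leading regions were divided into 5, 5 and 6 over the 3 parts of X.

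In 1 Mb steps from the left end, counts of combined X entries ran from 8 to 22 with a median of 15. The fullest step was 14000001 to 15000000 with 22 entries, followed by 1000001 to 2000000 with 21. The emptiest was 7000001 to 8000000 with 8, the best of which had peak number 183. Both replicate lists also had few entries there, 62 in replicate 1 and 109 in replicate 2, though the step at the right end, which is not full length, had fewer still (52 and 95). At least 1 of the 16 leading regions fell in 13 of the 18 steps, and the step 11000001 to 12000000 held 3 of them. Peak number and position along X were nearly unrelated across the 276 entries (Spearman's rho of 0.03).

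Neighbouring X regions were a median of 42.7 kb apart once overlapping entries were merged (quartiles 12.3 and 95.1 kb), within the range of medians of the autosomes, 30.1 kb on I to 48.3 kb on V. The longest stretch between neighbouring combined regions of X ran from 3826741 to 4190431, or 364 kb. The next between neighbouring regions were 7501418 to 7787817 (286 kb) and 8546426 to 8810839 (264 kb). Chromosome ends were left out of this ranking on X and the autosomes. The left end of X would come before these last stretches, since its lists start at 8267 and its first combined region at 325606. The 3 ranked stretches were not empty in the samples. The first contained 39 entries of replicate 1 and 54 of replicate 2, the next 13 and 37, and the third 15 and 32. The longest stretch between neighbouring regions measured 359 kb on I and 282 kb on III, both shorter than on X, and 875, 844 and 892 kb on II, IV and V.

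**Figure D5:**
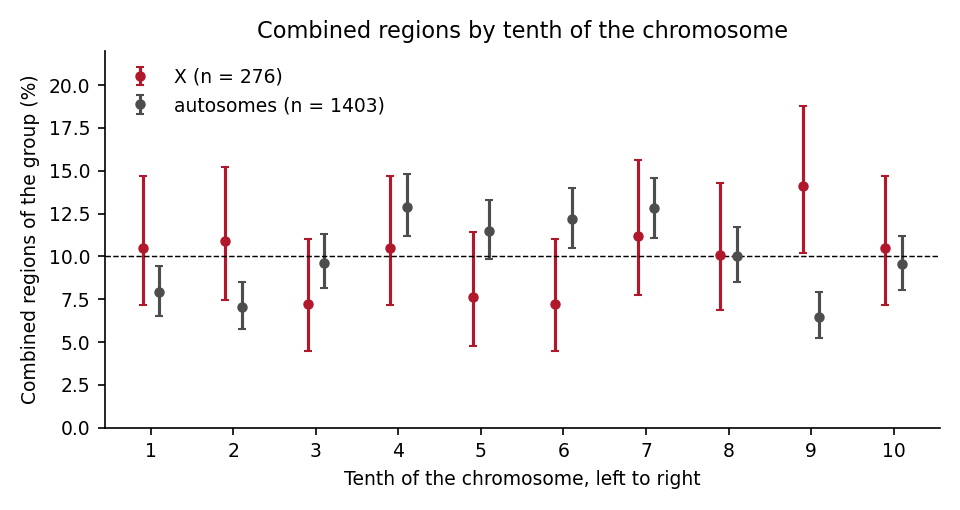
Percentage of the combined entries of X and of the autosomes (y axis) in each of 10 equal steps of the chromosome (x axis, left to right), with exact 95% binomial intervals and a dashed line at an even 10%. The autosomal points reach 12.9% in step 4 and 6.49% in step 9, while X has 7.61% and 7.25% in steps 5 and 6 and 14.1% in step 9.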

How the data were processed

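The 3 files are region lists of the authors on WormBase WS220, per the file headers; every line gives SPP with IDR as its source. For the aligner, versions, thresholds, use of the input and way of combining replicates, the step is not given in the sources used here. The deposited score per region has no named scale. Start, end and peak number are the authors' values, per the file headers and columns. No list of the input samples was analysed here, so no background could be measured in them.

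X entries were selected by chromosome. The members, lists and rules were chosen with earlier results of these data known. Overlaps, shares, exact 95% intervals and correlations were computed with scipy 1.17.1, pandas 2.3.3 and numpy 2.4.6 under Python 3.11.15, and figures with matplotlib 3.10.9. Mitochondrial entries were left out. Chromosome extent is the first to the last base in any list. Shares of 0 are limited by 3 counts. No test was run. Overlap counting was tested on simulated lists, where all 600 of 600 placed overlaps among 1500 regions were found. Regions named are the first 25 X entries, those without a counterpart, the widest, narrowest and last, those with the most unequal ranks, the best ones found in 1 list, the longest gaps and the extreme 1 Mb steps. The closing section gives the alternatives.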

Additional observations from a re-analysis of the deposited data

How the results depend on the processing

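Of 40 comparisons with an alternative setting, 27 lay within the 95% interval of the reported value and 13 lay outside it. None was labelled as reversed, but the values describe X alone, and a share or distance has no direction to change. Counting identical entries once, and leaving the first 25 regions out of the rank correlation, were chosen after seeing the data. The X share of the first 25 regions, 64.0%, was 36.0% for the first 50, 26% for the first 100 and 16.8% for all entries tied at the highest score. The last of these is below the 17.7% of chromosome length that X has, so the excess was absent there. The leading 1679 entries of a single replicate list, which leave out the other replicate, were also used. With them the X share of the first 25 was 60.0% to 64.0% and that of all regions 16.5% to 17.1%. The share after the first 25 was 15.8% to 16.4% and the middle share 30.0% to 30.3%. Where both regions had to overlap by 50%, 93.8% of X entries had both counterparts, and among the better 50% of the list 100% did. X entries of replicate 1 overlapped replicate 2 at 51.6% with 50% overlap, 50.0% with midpoints within 200 bp and 77.1% for the best 1000 regions of each list. For replicate 2 these were 34.6%, 33.2% and 78.9%. The rank correlation was 0.58 with the score. Another width than 490 bp was found in 24.5% of the better 50%. The cause was not tested, apart from the changes that a stricter overlap or a shorter list brings by construction. No paired analysis was possible because the inputs have no list among the files analysed here and the ChIP samples form 1 group. Depth was not measured, so what it limits is unknown.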
